A study of Spodoptera frugiperda with 18 samples.

Results

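The 62 microRNAs described here were predicted in the fall armyworm, Spodoptera frugiperda, by the authors' software rather than named after a known family, and they were not dominant in the egg. They were selected on the deposited counts: of 660 rows left once rows alike in sequence and in every count had been merged, 177 were predictions and 95 of those had at least 100 counts over all libraries. From these 95, the 33 whose egg level was at least 4 times that of the highest larval instar, with at least 10 counts in the egg, were left out. Another 82 predictions had under 100 counts, and 483 rows carried a family or species name. The prefix that the authors' table puts before each prediction is dropped here, and names are given from the m on.

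The fall armyworm is a moth and a crop pest, and its caterpillars eat maize above all. Small RNA was sequenced from it over development in 18 libraries: 1 of eggs, 1 for each larval instar from 1 to 6, 1 of prepupae, 3 of female and 3 of male pupae on days 1, 4 and 7, and 2 of female and 2 of male adults on days 1 and 4. The labels name no strain, rearing, treatment, tissue or number of animals per library. In such bulk samples fewer cells of a type and less RNA per cell cannot be told apart. Each instar, age and sex had 1 library, and libraries of different instars, ages or sexes stood in for replicates of a stage. The labels do not say that these came from separate cultures or pools, so a p-value covers no more than the spread among these libraries.

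A microRNA is a short RNA cut from a hairpin precursor, and either arm of the hairpin, named 5p or 3p, can be kept and loaded onto an Argonaute protein. It then guides that protein to messenger RNAs, chiefly through the seed near its 5′ end, and the messages it pairs with are usually repressed. In insects such RNAs time moults and metamorphosis and tune growth, and predictions of new ones are made from reads that pile up on a foldable stretch of a genome.

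Sequences are given for the members on which the results below turn, 5′ to 3′ in DNA letters as deposited, with bases 2 to 8, the seed, in capitals. The first is the most abundant member, whose sequence was listed under 3 names.
m0001-5p: cCCTTTTCgtgttttattaaca
m0002-5p: cCCTTTTCgtgttttattaaca
Next come m0004-3p, with the 2 named rows it overlaps, and m0010-5p with the named row that extends it by a base at its 3′ end. In other animals, miR-375 is best known from hormone-secreting cells of the mammalian pancreas.
m0004-3p: tTTGTTCGccccggctcgagtcg
miR-375-y: tTTGTTCGccccggctcgagtcgc
sfr-miR-375-3p: aGTTTGTTcgccccggctcga
m0010-5p: cGGCTCATcgtatggcagtttgct
miR-745-x: cGGCTCATcgtatggcagtttgcta
Members with large differences among larvae or between larvae and later stages are shown, as examples picked after their values had been seen, to let their seeds be compared, and none of those listed shared a seed.
m0017-5p: cATCGACAtcgtcagaaact
m0073-3p: cTTGCGCTtctctaacttttcg
m0082-3p: tAAAATGGcaaacaaagactg
m0130-3p: cAACGTGAcaataaaagataaa
m0023-3p: cTCAGTATtactttggacccacc
m0053-3p: cTTGCAACatcttgtccagaac
m0105-5p: aTTCCAATgttcgttagtgatat
m0132-5p: gTTTTGTCgcgcttttaaca
m0080-5p: tGACGTCAgggattacgcaagct
m0083-3p: gTGGGGCAaattgcgaaagctg
Last are 5 of the members that were higher in males at every age compared, m0024-5p and the rows closest to it by correlation over the 18 libraries. With them are m0048-5p and miR-10-x, which have the seed of the first 2.
m0024-5p: aCCCTGTAgatccgaactttaa
m0052-5p: aCCCTGTAgatccgaactttat
m0048-5p: aCCCTGTAgaaccgagactttat
miR-10-x: aCCCTGTAgatccgaatttgtta
m0043-3p: tTTGGCACttgatctatttctaaa
m0103-5p: tTCCTGTTgacgccaattttttt
m0111-5p: aGAGAGGAactgccagcgccc

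The 62 members held 60 distinct sequences of 19 to 25 bases with a median of 22, and 48 of the 62 were 21 to 23 bases long. They began with C in 24 cases, T in 18, A in 15 and G in 5. A first T was thus found in 29.0% of members, against 44.5% of the 483 named rows, 52.4% of the 82 predictions with under 100 counts and 75.8% of the 33 left out as egg-dominant. For none of the 62 was there a predicted row of the same number named as the other hairpin arm. An arm listed under another number could not be found this way, since no hairpins were at hand. The median GC content was 45.5%.

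A near copy, meaning a row with no more than 2 differences over an alignment of 18 or more bases, was found for 18 members. For 10 of them it was a named microRNA, and for the other 8 it was another prediction. Reads of such rows could have been split between names in counting, or counted under each of them, so their values are uncertain. Of the reads held jointly with the near copies, m0010-5p had 99.9%, m0033-3p 98.2% beside miR-988-y, m0021-3p 97.9% beside miR-190-y and m0105-5p 97.7% beside miR-10460-x. For these 4 the row called a prediction was the main one. By contrast, m0039-5p held 0.291% beside miR-31-x and miR-72-x, m0078-5p 0.146% beside the miR-281 rows, m0120-3p 0.329% beside the miR-989 rows and m0122-5p 0.123% beside the miR-14 rows. Those 4 had the sequence of an abundant named row with further bases at the 3′ end or a start moved by a base. Between these extremes, m0004-3p held 79.2% of the reads of the 3 rows shown above and m0075-5p 59.0% beside sfr-miR-11-5p.

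A seed was shared with a named row by 17 members. The group with the seed CCCTGTA was m0024-5p, m0052-5p and m0048-5p, with miR-10-x, miR-10-z and sfr-miR-2756-5p. miR-10 is encoded within the Hox gene cluster of insects. The abundant sfr-miR-10-5p has the same letters 1 base further along, so that its bases 2 to 8 match bases 1 to 7 of the 3 members. miR-993-x and the miR-2755 rows match the 3 members in the same way. By whole sequence the closest named row was miR-993-x for m0024-5p, with 3 differences over 21 aligned bases, and for m0048-5p, with 4 over 21. For m0052-5p it was miR-10-x, with 3 over 22. m0024-5p and m0052-5p differed from each other by 1 base. m0091-3p and m0093-3p also differed by 1 base and shared the seed GAACACA with the miR-317 rows, while m0043-3p shared TTGGCAC with sfr-miR-263b-5p, a family that protects sensory bristle cells in Drosophila. m0054-5p shared TTAGAAT with miR-927-x. The top sequence was within 2 differences of no named row, and the closest, miR-1468-x, had 6 differences over 20 aligned bases.

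Totals per library ran from 230451 counts in instar 3 to 4808814 in the prepupa. The egg, at 285485, all 6 larval libraries, at 230451 to 796582, and the male pupae of days 4 and 7, at 472581 and 418883, were shallow. A level of 3 counts, a floor set by choice, was worth from 0.624 CPM, in the prepupa, up to 13.0 CPM, in instar 3. Levels that rest on fewer counts are also printed. Wherever the worth of 3 counts is given, it is relative to the library total without TMM factors, unlike the levels. Between 18 members in the egg and 59 in the prepupa had at least 10 counts, and 27 members had a count in all 18 libraries. Levels below are CPM, counts relative to the library total scaled by TMM factors, and intervals cover counting error only. Rows with vertebrate family names, a list made after the data had been seen, held 0.00175% to 0.911% of counts, the most in instar 5, and their part in the results was not tested except where stated.

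The members together held a median of 3.10% of the counts of a library. This share was highest in the egg at 7.76% (exact 95% binomial interval 7.67% to 7.86%), followed by the male adult of day 4 at 5.50% (5.48% to 5.53%). It was lowest in instar 3 at 1.77% (1.71% to 1.82%). Most of it was the single top sequence, which held 67.2% to 94.7% of the members' counts. These shares sum its counts under m0001-5p and m0002-5p, so any read counted under both names enters them more than once. In the egg the 2 rows had 37291 and 36275 CPM of the library total without TMM factors. Without that sequence the other 60 members held 0.313% of counts in the female pupa of day 7 and 1.66% in the male adult of day 4, where m0004-3p was high. The 33 egg-dominant predictions held 21.7% of the egg's counts, 2.33% in the female adult of day 4 and at most 0.590% in any other library.

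**Figure D1:**
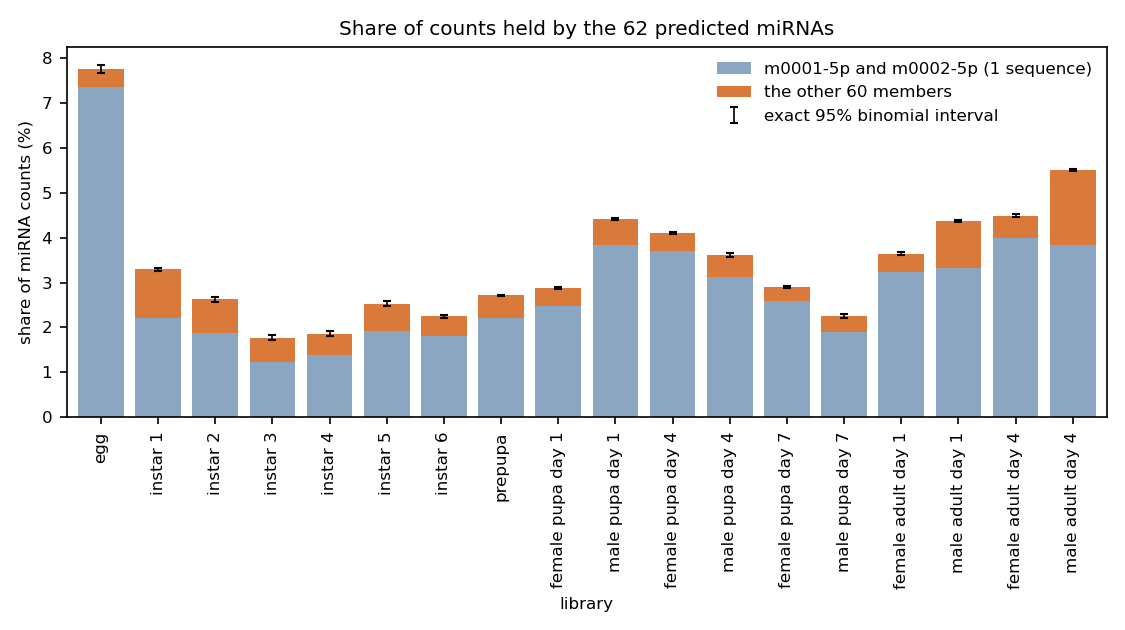
Share of all counts (%, y axis) held by the 62 members in each of the 18 libraries (x axis), split into the top sequence and the other 60 members, with exact 95% binomial intervals of the whole. The egg stands highest at 7.76%, and the other 60 members take their largest share, 1.66%, in the male adult of day 4.

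At the edges of the selection, m0151-5p with 103 counts, m0128-3p with 109 and m0145-5p with 111 were the last inside, and m0150-5p with 95, m0136-3p with 90 and m0161-3p with 77 the first outside. On the egg ratio, m0002-5p at 3.96, m0075-5p at 3.91 and m0043-3p at 3.34 were just inside, and m0042-3p at 4.18, m0076-5p at 5.67 and m0031-5p at 5.73 just outside. A ratio of 5.80 left m0119-5p inside, because it had only 5 counts in the egg. The egg was still the highest library for 13 of the 62 members in TMM-scaled CPM. A larval library was highest for 22, a male pupa or a male adult for 9 each, a female pupa for 7 and a female adult for 2.

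**Figure D2:**
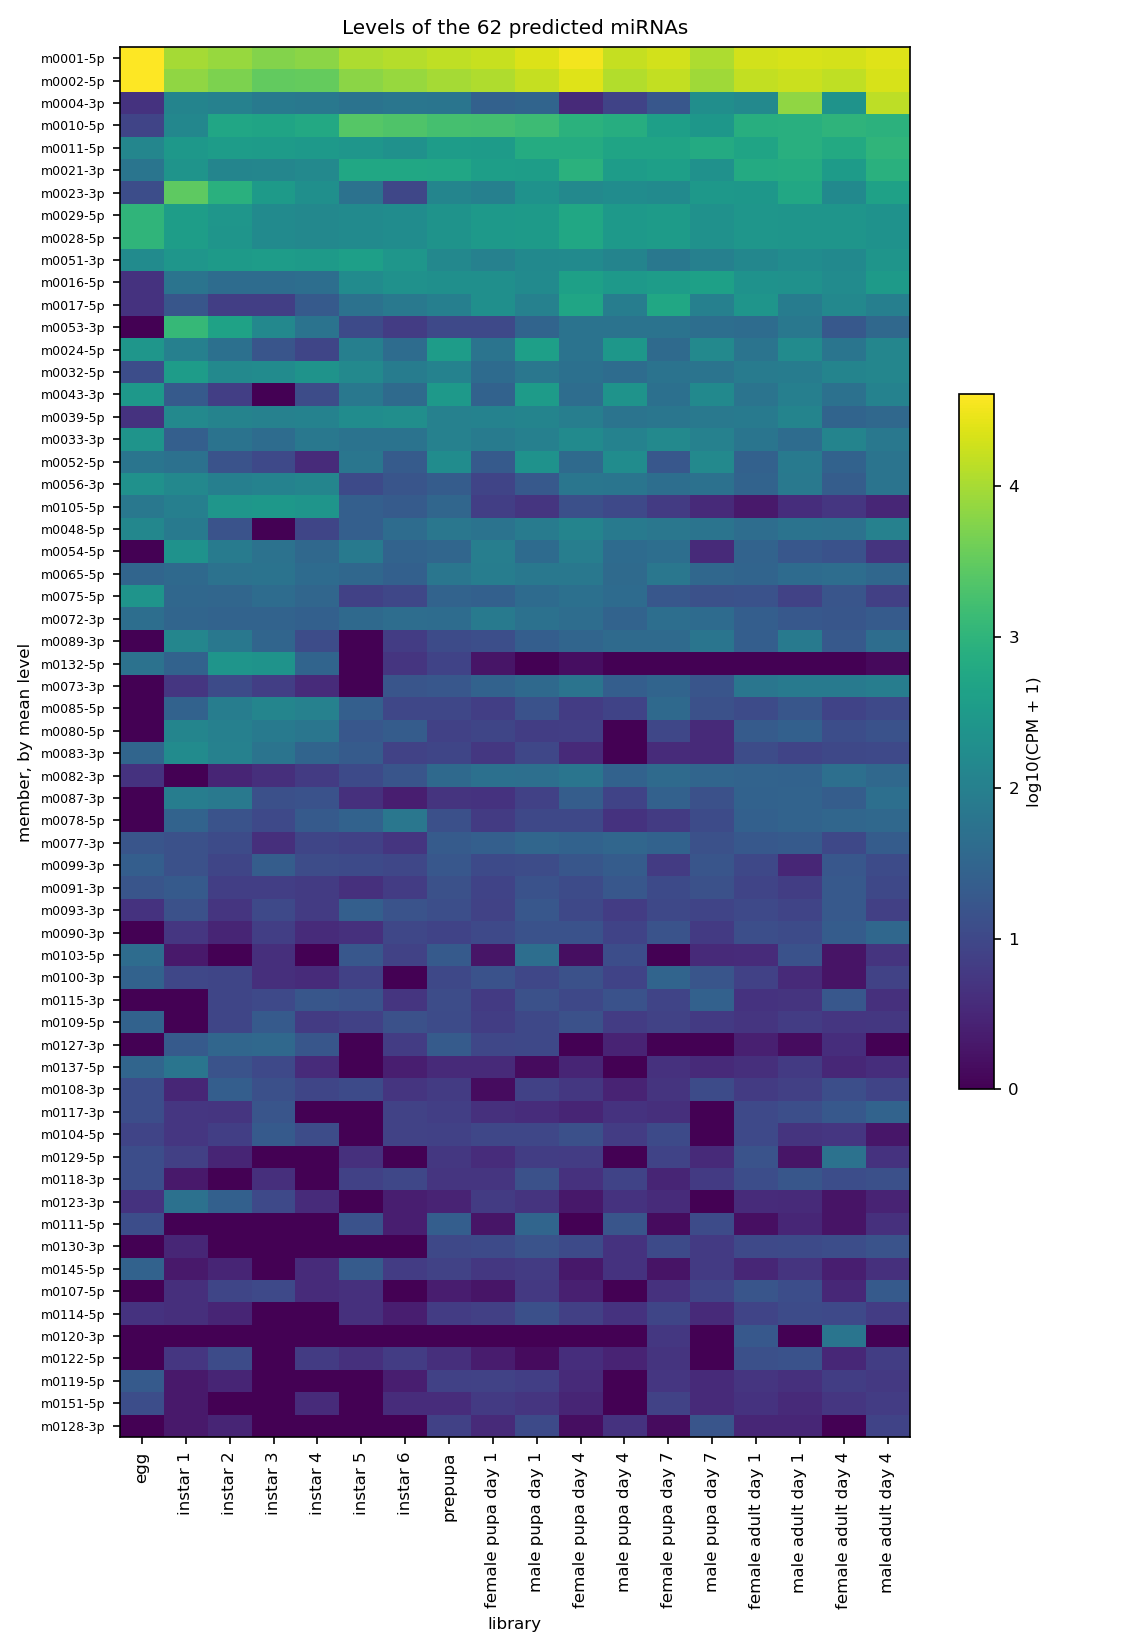
Level of each of the 62 members (y axis, ordered by mean level) in each of the 18 libraries (x axis), as log10(CPM + 1) in colour. The top 2 lines are one sequence, above 3184 CPM in every library, and m0004-3p is bright in the male adults.

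Stages were compared in 1 edgeR quasi-likelihood fit that took in 6 larval, 6 pupal and 4 adult libraries, which tested 320 of the 660 rows and 49 of the 62 members. The other 13 members had a mean under 10 counts. Larval values also entered the selection through the highest instar, and the 3 comparisons share libraries. In pupae against larvae 12 of the 49 members (24.5%) were higher and 9 (18.4%) lower, where 19.4% of all tested rows were higher and 18.1% lower. In adults against larvae 10 (20.4%) were higher and 11 (22.4%) lower, against 17.5% and 15.6% of all. In adults against pupae 3 (6.12%) were higher and 1 (2.04%) lower, against 11.2% and 12.2%, and DESeq2 called 12 of the 49 there, against 32.5% of all. None of these shares was tested against that of all rows.

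The median log2 fold change of the tested members was 0.35 in pupae against larvae, -0.094 in adults against pupae and 0.0047 in adults against larvae, where all tested rows had -0.0077, 0.088 and 0.089. Scaling by library totals moved the median of all rows to -0.31, 0.24 and -0.00014, and pupal calls then became 9 higher and 11 lower among members and 44 higher (13.8%) and 78 lower (24.4%) among all 320 rows. No member's call changed sign under any alternative run. Depth also moved with stage, since every larval library was shallower than every adult one, and its part in the results was not tested.

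**Figure D3:**
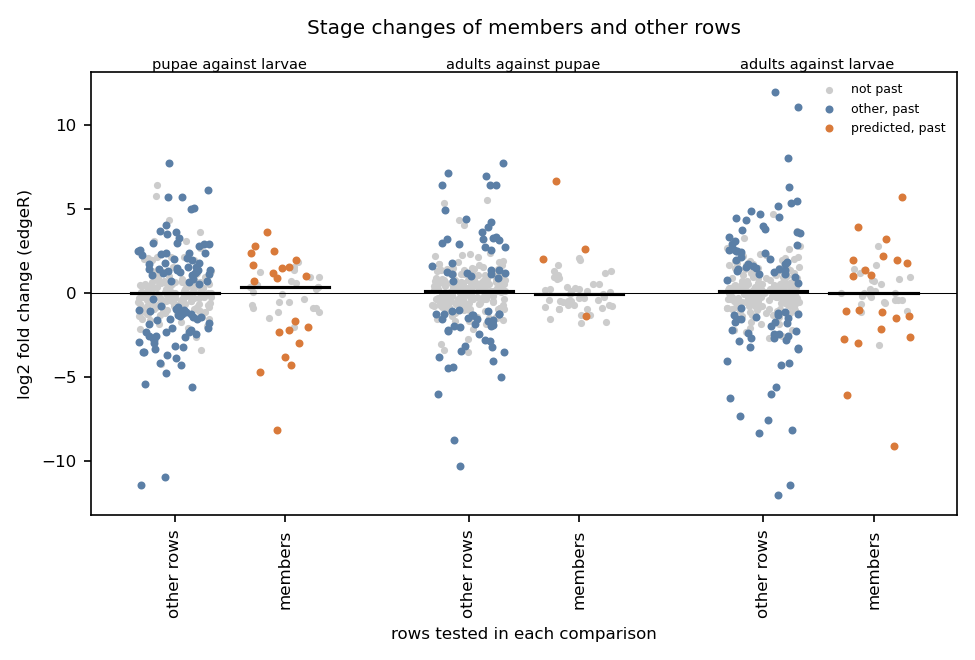
Log2 fold change from edgeR (y axis) of every tested row in the 3 stage comparisons (x axis, members beside other rows); points in colour have an adjusted p under 0.05 and bars are medians. In pupae against larvae 12 members were higher and 9 lower, and in adults against pupae 3 and 1.

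The top sequence was deposited under m0001-5p, m0002-5p and m0003-5p. m0001-5p and m0003-5p had equal counts and were merged, while m0002-5p had fewer in every library. How reads that match several names were counted is not given, so the same reads may stand under several names. m0002-5p held 34.2% to 49.3% of the pair, the most in the egg. m0001-5p was at 40716 CPM in the egg and at 9786, 7790.1, 5713, 6415, 11061 and 12459 in instars 1 to 6. The prepupa had 14839.9, female pupae of days 1, 4 and 7 16554, 33387 and 19489.8, and male pupae 22997, 16157 and 11018. Female adults of days 1 and 4 had 20058 and 20210.5, and male adults 21377 and 24525. Levels thus ran lowest in instars 3 and 4, every adult library stood above every larval one, and the pupal and larval ranges overlapped only through the male pupa of day 7. The rise was 0.90 on the log2 scale in pupae (SE 0.23, edgeR adjusted p = 0.00825) and 1.0 in adults against larvae (SE 0.25, edgeR adjusted p = 0.00781). m0002-5p rose by 1.17 in pupae and 1.38 in adults against larvae, with edgeR adjusted p = 0.00269 and 0.00197.

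Further down in level, m0017-5p and m0016-5p had higher levels in instars 5 and 6 than in instars 1 to 4. m0017-5p had 3.82 CPM in the egg, 16.1, 6.17, 6.27, 19, 53.6 and 72 in instars 1 to 6 and 96.1 in the prepupa. Female pupae had 200.1, 522 and 567 and male pupae 105, 89.5 and 102, and female and male adults had 249 and 141 and 84 and 96.4. Each pupal and adult library was above all 6 instars, and the female pupae of days 4 and 7 were highest. The change was 2.82 (SE 0.69, adjusted p = 0.00637) in pupae against larvae by edgeR. In adults against larvae it was 1.96 (SE 0.72, adjusted p = 0.0473), a call lost on leaving out any one of 12 of the 16 libraries, with adjusted p up to 0.138. The 4 libraries it did not depend on were instars 5 and 6, the male pupa of day 1 and the female pupa of day 7. m0016-5p had 59.1, 41.2, 40.8, 46.1, 164 and 213 CPM in instars 1 to 6, 193, 416 and 359 in female and 159, 310.3 and 412 in male pupae, so that its last 2 instars reached the pupal range. Its adults, at 226 and 167 in females and 217 and 328 in males, overlapped the larvae and did not pass against them (0.98 (SE 0.53, adjusted p = 0.166) by edgeR). Its pupal rise of 1.48 (edgeR adjusted p = 0.0276) was lost without instar 1, 3 or 4 or the male pupa of day 4 or 7, with adjusted p up to 0.0665, and was 0.125 without both of those male pupae.

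Other members that rose after the larva were scarcer, and were picked out after their values had been seen. m0073-3p was at 4.3, 10.3, 6.27, 2.71, 0 and 15.5 CPM in instars 1 to 6, at 27.7, 59.4 and 29.5 in female and 36.4, 22.8 and 15.3 in male pupae, and at 62.3 and 79.6 in female and 77.5 and 90.3 in male adults. The 4 adult libraries were the 4 highest of all 18, and the log2 changes against larvae were 1.95 (SE 0.55, adjusted p = 0.0128) in pupae and 3.23 (SE 0.59, adjusted p = 0.00137) in adults by edgeR. m0082-3p went from 0, 2.06, 3.14, 5.42, 10 and 15.5 CPM in instars 1 to 6 to 48.4, 61.9 and 38.4 in female and 47.6, 26.7 and 30.5 in male pupae, without overlap. Its edgeR log2 changes were 2.50 (SE 0.66, adjusted p = 0.0094) and, in adults, 2.19 (SE 0.70, adjusted p = 0.0243); the adult call was lost without instar 3 or the female adult of day 4, at adjusted p up to 0.0555. m0130-3p had 2 counts in instar 1 and none in the other 5 instars, where 3 counts are worth 3.77 to 13.0 CPM of the library total. Its level was 3.81 to 14.0 CPM in pupae and 9.43 to 14.1 CPM in adults. edgeR called it higher in both, with adjusted p = 0.000725 and 0.00108, but with larvae near 0 its fitted fold depends on the prior count and is not given. It reached the mean of 10 counts needed for a test only through pupae and adults, so these p-values are description only.

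m0011-5p was among the most even members, with 286, 358, 336, 298, 268 and 216 CPM in instars 1 to 6, 337, 697 and 494 in female and 671, 493 and 657 in male pupae, and 487 and 633 and 819 and 1018 in female and male adults. All 4 adult libraries were above all 6 instars, with an adult rise of 1.07 (SE 0.29, adjusted p = 0.0104) by edgeR; by library totals the adjusted p was 0.067. Its pupal rise of 0.74 (edgeR adjusted p = 0.0387) was lost on leaving out any one of 11 libraries, all but instar 2, the female pupae of days 1 and 7, the female adult of day 1 and the male adult of day 4. It was also lost without both late male pupae and by library totals, where the adjusted p reached 0.361.

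The remaining calls above larvae in pupae were m0043-3p, m0033-3p, m0077-3p and m0114-5p, with log2 changes of 2.36, 0.99, 1.57 and 1.68. For m0043-3p only male pupae, at 334, 234 and 150.2 CPM, were above the larval range of 0 to 70.3. Female pupae, at 27.3, 42.6 and 48.9 CPM, lay within it. Of these, m0043-3p was lost without any one of 11 libraries (instars 1, 2, 3, 4 or 6, any male pupa, the female adult of day 1 or a male adult), with edgeR adjusted p up to 0.149. m0033-3p was lost without instar 1 or 3, or a female or male pupa of day 4 or 7, and by library totals, with edgeR adjusted p up to 0.154. m0077-3p kept its call under all 25 alternatives, and m0114-5p lost it by library totals alone of the 19 in which it was tested. m0114-5p was also higher in adults, by 1.93 (SE 0.57, adjusted p = 0.017) in edgeR, a call lost without the female adult of day 4. In adults, m0090-3p was also above larvae by 1.76 (SE 0.45, adjusted p = 0.00795) in edgeR, under every alternative.

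m0010-5p and m0021-3p were abundant but passed no stage test. m0010-5p was scarce in the egg at 7.65 CPM, went from 135 in instar 1 to 2526 in instar 5, a single-library ratio of 18.7, and then had 1693, 885 and 393 in female pupae of days 1, 4 and 7 and 1452, 735 and 269.9 in male pupae. Both sexes ran down in the same order over the pupal days. miR-745-y, another row of that family, had 19.3 CPM in instar 1, 697 in instar 5, and 1175, 627 and 316 in female pupae of days 1, 4 and 7. m0021-3p ran from 61.2 CPM in the egg to 865 in the female pupa of day 4, and its instars had 241, 126, 132, 146, 556 and 559 CPM. miR-190-x, another row of its family, had 2314, 1965, 1038, 591, 281 and 354 CPM in the instars, lowest in instars 5 and 6 where m0021-3p was highest.

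m0028-5p and m0029-5p, also one sequence, had equal or nearly equal counts in every library, such as 873 each in the female pupa of day 7. In the prepupa they had 1012 and 1015. m0028-5p held 49.0% to 50% of their summed counts. Whether the same reads were counted under both names was not tested. m0029-5p was highest in the egg at 1040.3 CPM and lay between 144 in instar 4 and 551 in the female pupa of day 4 elsewhere, with no stage call.

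Among the members that fell, m0105-5p had the sharpest drop of those above 50 CPM on average. It was at 68.8 CPM in the egg and 95.6, 261, 292, 249, 23.4 and 19.8 in instars 1 to 6, so that it fell already between instars 4 and 5. The prepupa had 32.8, female pupae 6.2, 12.2 and 5.43, male pupae 4.2, 9.52 and 2.55, female adults 1.05 and 4.42 and male adults 3 and 2.14. All 10 pupal and adult libraries lay below all 6 instars. The edgeR log2 change was -4.74 (SE 0.73, adjusted p = 0.000296) in pupae and -6.08 (SE 0.93, adjusted p = 0.000415) in adults against larvae. m0132-5p, named after its values had been seen, was still more restricted, with 26.8, 255, 232, 29.8, 0 and 4.24 CPM in instars 1 to 6 and 53.5 in the egg. It had 2 counts in the female pupa of day 1, 1 in the female pupa of day 4, 1 in the male adult of day 4 and none in the other 7 pupal and adult libraries. edgeR called it lower in pupae (adjusted p = 0.000662) and adults (adjusted p = 0.00174), with no fold given because those groups were near 0. It reached the mean needed for a test only through larvae, whose values also entered the selection, so these p-values are description only.

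m0051-3p fell more evenly. Its level was 261, 325, 354, 323, 399 and 264 CPM in instars 1 to 6, 107, 162 and 69.8 in female pupae, 156, 118 and 102 in male pupae, 137 and 150.3 in female and 172 and 254 in male adults. Every pupal and adult library was below every instar. The edgeR change was -1.65 (SE 0.26, adjusted p = 0.00035) in pupae, under all 25 alternatives, and -1.13 (SE 0.30, adjusted p = 0.00877) in adults, a call lost without the female adult of day 4 (adjusted p = 0.0627) and with no filter on low counts. m0032-5p went from 352, 148, 169, 230.5, 147 and 84.7 CPM in the instars to 39.3, 49.7 and 56.6 in female and 66.5, 41.9 and 58.6 in male pupae and to 80.7 and 122 and 84 and 130.1 in female and male adults. The pupal libraries lay below all instars, while the adults overlapped them. Its edgeR change was -2.03 (SE 0.32, adjusted p = 0.00035) in pupae and -1.10 (SE 0.36, adjusted p = 0.0275) in adults, the latter lost without instar 1, the male pupa of day 1, the female adult of either day or the male adult of day 1, with adjusted p up to 0.0909.

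A group of members was highest in the first instar and then went down. m0023-3p had 2919.7, 839.5, 323, 195, 53.6 and 8.47 CPM in instars 1 to 6, in strict order, then 122 in the prepupa, 100.1, 147 and 159 in female and 227, 171 and 288 in male pupae and 273 and 156 and 584 and 438 in female and male adults. The instar 1 level was 345 times that of instar 6 as a ratio of single libraries. With larvae on both sides of the later stages, pupae against larvae did not pass (-2.03 (SE 0.91, adjusted p = 0.0856) by edgeR). m0053-3p took the same course, with no count in the egg, 1231, 449, 138, 56.9, 10 and 5.65 CPM in the instars and 9.51, 56.3 and 55.1 and 29.4, 55.2 and 45.8 in female and male pupae. Its edgeR change in pupae, -2.99 (SE 1.0, adjusted p = 0.0283), was lost without instar 1, the male pupa of day 1 or the female pupa of day 4, without both late male pupae, and in limma, with adjusted p up to 0.323. m0054-5p had 220.1, 82.3, 53.3, 35.2, 73.7 and 28.2 CPM in the instars and was lower in adults against larvae (-2.62 (SE 0.80, adjusted p = 0.0199) by edgeR), a call lost without either adult library of day 4 at adjusted p up to 0.0692.

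Named microRNAs of neurons moved in the same direction over these instars. miR-124-y had 947, 593, 339, 130.1, 10 and 15.5 CPM and miR-137-y 6095, 2019, 922, 550.4, 268 and 244 CPM in instars 1 to 6. miR-927-x, which has the seed of m0054-5p, had 3973, 1047, 323, 165, 26.8 and 59.3. The muscle rows went the other way in part, with miR-1-y at 26027, 34373, 52564, 51356, 68213 and 85033 CPM and miR-133-z at 698, 798, 671, 648, 305 and 563. The part of any tissue in the members' values was not tested.

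Scarcer members were also highest in the first instar among larvae, and those given here were named after their values had been seen. m0080-5p had 123, 101, 75.3, 62.4, 16.7 and 21.2 CPM and m0083-3p 163, 107, 59.6, 29.8, 20.1 and 7.06 CPM in instars 1 to 6. m0089-3p went from 129.9 CPM in instar 1 to 5.65 in instar 6, m0087-3p from 90.2 to 1.41, m0137-5p from 60.1 to 1.41 and m0123-3p from 51.5 to 1.41. The instar 6 values of the last 3 rest on 1 count each, against 84, 56 and 48 counts in instar 1. m0089-3p and m0087-3p passed no stage test, and m0137-5p and m0123-3p were too scarce to be tested. m0085-5p instead peaked in instar 3, with 26.8, 90.5, 122, 103, 23.4 and 8.47 CPM in instars 1 to 6. The edgeR log2 changes of m0080-5p, m0083-3p and m0085-5p in pupae against larvae were -3.80, -4.28 and -2.36, past the threshold under all 25 alternatives. In adults against larvae they were -2.13, -3.0 and -2.76. The adult call of m0080-5p was lost without the female adult of day 1 or either adult of day 4, with no filter and in limma, with adjusted p up to 0.0918. Falls in adults against larvae were also called for m0039-5p (-1.35), m0072-3p (-1.04) and m0075-5p (-1.50), and m0075-5p, at edgeR adjusted p = 0.0499, lost its call under 19 of 25 alternatives. Leaving out any one of 13 libraries, all but instars 5 and 6 and the female pupa of day 7, was enough. m0039-5p lost its call without either adult of day 4. m0072-3p lost it without instar 5, the male pupa of day 1 or any one of the 4 adults, with edgeR adjusted p up to 0.187.

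**Figure D4:**
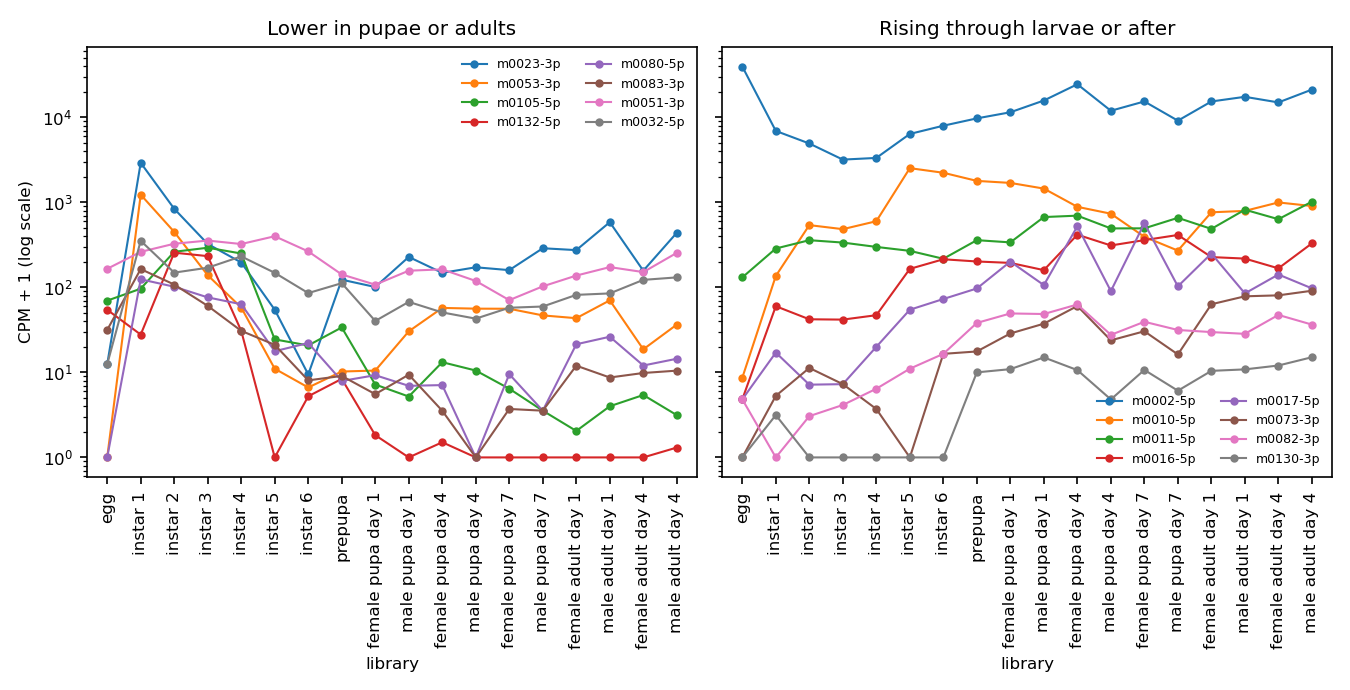
Level as CPM + 1 on a log axis (y) of 16 members in the 18 libraries in order of development (x); lines join single libraries and show no error. In the left panel m0023-3p starts at 2919.7 CPM in instar 1 and m0132-5p is at or near 0 in pupae and adults, and in the right panel m0017-5p reaches 567 CPM in the female pupa of day 7.

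Between pupae and adults, the largest change among members was that of m0004-3p. It had 3.82 CPM in the egg, 119, 107, 75.3, 70.5, 56.9 and 63.5 in instars 1 to 6, 61.9 in the prepupa, and 25.6, 2.54 and 17.1 in female and 30.1, 7.61 and 188 in male pupae. Female adults of days 1 and 4 had 145 and 234 CPM and male adults 6927 and 14029.7. The male adult of day 4 alone held 63.3% of its level summed over the 18 libraries. Its edgeR log2 change was 6.66 (SE 1.34, adjusted p = 0.00281) in adults against pupae, where only the male pupa of day 7 was within the adult range, and 5.75 (SE 1.29, adjusted p = 0.00409) against larvae, both under every alternative. sfr-miR-375-3p, its near copy, had 57.1 and 118 CPM in female and 1315 and 3926 in male adults against at most 52.2 in any other library, so that both rows were high in the same libraries.

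The other calls between pupae and adults fell on scarce members, named after their values had been seen. m0078-5p was at 27.9, 14.4, 9.41, 19, 26.8 and 64.9 CPM in instars 1 to 6, at 5.38, 9.14 and 5.43 in female and 9.1, 3.81 and 10.2 in male pupae and at 25.1 and 32.4 and 28.3 and 35.5 in female and male adults, without overlap between pupae and adults (2.04 (SE 0.49, adjusted p = 0.00895) by edgeR). It was also lower in pupae than in larvae (-2.19 (SE 0.47, adjusted p = 0.00263) by edgeR), under all 25 alternatives, while adults against larvae gave -0.15 (SE 0.49, adjusted p = 0.857), so that the pupae were low against both. Its abundant near copy sfr-miR-281-5p had 6604, 4116 and 8862 CPM in female pupae, 7156, 2385 and 5522 in male pupae, 18958 and 15799 in female and 15391 and 23038 in male adults, the same order between pupae and adults. m0117-3p rose (2.61 (SE 0.71, adjusted p = 0.0149)) and m0072-3p fell (-1.37 (SE 0.36, adjusted p = 0.0128)) by edgeR, and both calls were lost without the female adult of day 4, at adjusted p up to 0.0771. Without that library, 2 members and 29 of 315 rows were called in adults against pupae.

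Females and males were compared over 10 libraries with age as a block, in a fit that tested 344 rows and 52 members. edgeR called 0 of the 52 members, with 0.581% of all tested rows called. At an unadjusted edgeR p under 0.05 there were 12 members (23.1%), 4 higher and 8 lower in females, against 12.2% of all rows. DESeq2 on the same rows called 12 members (23.1%), 2 higher and 10 lower in females, against 6.1% of all rows. The median log2 change of all tested rows was 0.21 with TMM factors, 0.016 with library totals and 0.071 with DESeq2's size factors, so females were set higher by the main scaling. When the 76 rows with vertebrate family names were left out, a choice made after the data had been seen, edgeR called 7 members (of 52), against 4.09% of the 318 rows left.

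Taking the 5 ages one by one, a description chosen after the values had been seen, the male library was above the female one at every age for 9 of the 52 members (17.3%), against 3.49% of all 344 rows. They were m0004-3p, m0023-3p, m0024-5p, m0043-3p, m0052-5p, m0089-3p, m0103-5p, m0111-5p and m0118-3p. Females were above males at every age for 4 members (7.69%), m0017-5p, m0054-5p, m0082-3p and m0104-5p, against 6.1% of all rows. With library totals 13 members were higher in males, against 6.98% of all rows, and 2 in females, against 4.36%. With DESeq2's size factors these were 14, against 6.98%, and 6, against 7.85%. Under all 3 scalings 8 members were higher in males at every age, the 9 named without m0118-3p, and 2 higher in females, m0017-5p and m0054-5p. None of these counts carries a test, and m0024-5p and m0052-5p differ by 1 base and are not independent.

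m0024-5p was at 58.3, 55.8 and 37.6 CPM in female pupae of days 1, 4 and 7 and at 401, 276 and 148 in male pupae. Female adults had 57.6 and 59.7 and male adults 167 and 127. Every male library was above every female one, by 6.87 times on pupal day 1 and 2.13 times on adult day 4. The change in females against males was -1.88 (SE 0.31, adjusted p = 0.0564) by edgeR, and the DESeq2 adjusted p was 4.15e-06. Earlier libraries had 264 CPM in the egg, 98.8, 49.4, 15.7, 8.13, 97.1 and 42.4 in instars 1 to 6 and 346 in the prepupa.

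m0052-5p, 1 base away, had 19, 37.6 and 17.1 CPM in female and 224, 173 and 145 in male pupae and 25.7 and 27.3 and 73.7 and 58.5 in female and male adults. m0043-3p, of another sequence and seed, had 27.3, 42.6 and 48.9 and 334, 234 and 150.2 in female and male pupae and 57.6 and 50.8 and 95.1 and 111 in female and male adults. Neither overlapped between the sexes within pupae or within adults. In edgeR their changes were -2.23 (SE 0.42, adjusted p = 0.0685) and -1.83 (SE 0.46, adjusted p = 0.124), and their DESeq2 adjusted p-values were 3.66e-05 and 0.00192.

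The scarce m0103-5p and m0111-5p had 9 and 5 counts summed over the 5 female libraries against 180 and 118 over the 5 male ones. Over all 5 ages males had 21.8 and 25.8 times the female level, with exact 95% counting intervals of 11.2 to 48.5 and 10.7 to 80.8. Pupal day 1 held 128 and 90 of the male counts, and without that age the ratios were 8.90 (4.03 to 23.2) and 11.2 (3.46 to 57.5). In adults alone they were 4.37 (1.86 to 12.5), from 6 female and 45 male counts, and 4.66 (1.10 to 41.8), from 2 and 16. The edgeR adjusted p was 0.0685 for each, and that of DESeq2 was 0.000551 and 3.66e-05. m0103-5p and m0111-5p reached the mean needed for a test only through their male counts, so these p-values are description only. Both were also present in the prepupa, at 19.4 and 23.3 CPM, and m0103-5p in the egg at 42.1 CPM.

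These 5 members, all picked as higher in males at every age, were alike in part of their course over the 18 libraries. That choice itself adds to their correlation. They differed in instar 1, with 98.8 CPM of m0024-5p, 51.5 of m0052-5p, 19.3 of m0043-3p, 1.07 of m0103-5p and 0 of m0111-5p. Among the other 396 rows with at least 100 counts, those closest to m0024-5p by Pearson correlation of log2(CPM + 1) over the 18 libraries were m0052-5p at 0.955, m0043-3p at 0.844, m0111-5p at 0.827 and m0103-5p at 0.749, then miR-10465-y at 0.692. The ranking is a description made after the values had been seen, over libraries that share depth and scaling. By the same measure the rows closest to m0017-5p were miR-10496-y at 0.938, miR-98-x at 0.929 and miR-8549-z at 0.911, all named. The seed partner miR-10-x, like m0024-5p, was higher in the egg than in any instar, at 45508 CPM. It differed from m0024-5p in adults, with 607 and 5040.5 CPM in female and 352 and 286 in male libraries. m0048-5p, of the same seed, had 57.1, 119 and 66.3 CPM in female and 81.2, 76.1 and 58.6 in male pupae, which overlapped.

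m0023-3p and m0089-3p were higher in males by smaller ratios, 1.16 to 2.80 and 1.25 to 3.44 over the 5 ages, with edgeR adjusted p = 0.164 and 0.3 and DESeq2 adjusted p = 3.69e-10 and 0.00156. m0004-3p widened with age, from 1.17 times on pupal day 1 to 47.9 on adult day 1 and 59.9 on adult day 4. In the other direction m0017-5p was 1.46 to 5.84 times higher in females (1.67 (SE 0.37, adjusted p = 0.0809) by edgeR, DESeq2 adjusted p = 3.81e-05). m0054-5p was 1.62 to 3.33 times higher in females at 4 of the 5 ages. On pupal day 7 the ratio was 17.5, but with a counting interval of 3.08 to 698, since the male library had 1 count. Over all ages it had edgeR adjusted p = 0.22 and DESeq2 adjusted p = 0.0386. Male pupae of days 4 and 7 were 6.52 and 8.29 times shallower than the females of those ages, and the part of depth in these ratios was not tested.

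Whether the sex difference itself changed between pupae and adults was tested as an interaction. edgeR called 0 of 52 members, with 3.2% of all rows called. At an unadjusted edgeR p under 0.05 there were 7 members (13.5%) against 18.3% of rows, and DESeq2 called 4 members (7.69%) against 11.6% of rows. By DESeq2 the male excess was smaller in adults for m0024-5p, m0043-3p and m0052-5p, with adjusted p = 0.0128, 0.0181 and 0.00176, and larger for m0004-3p, with adjusted p = 0.0128. The median of all rows in this contrast was -0.35 with TMM factors and 0.36 with library totals.

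**Figure D5:**
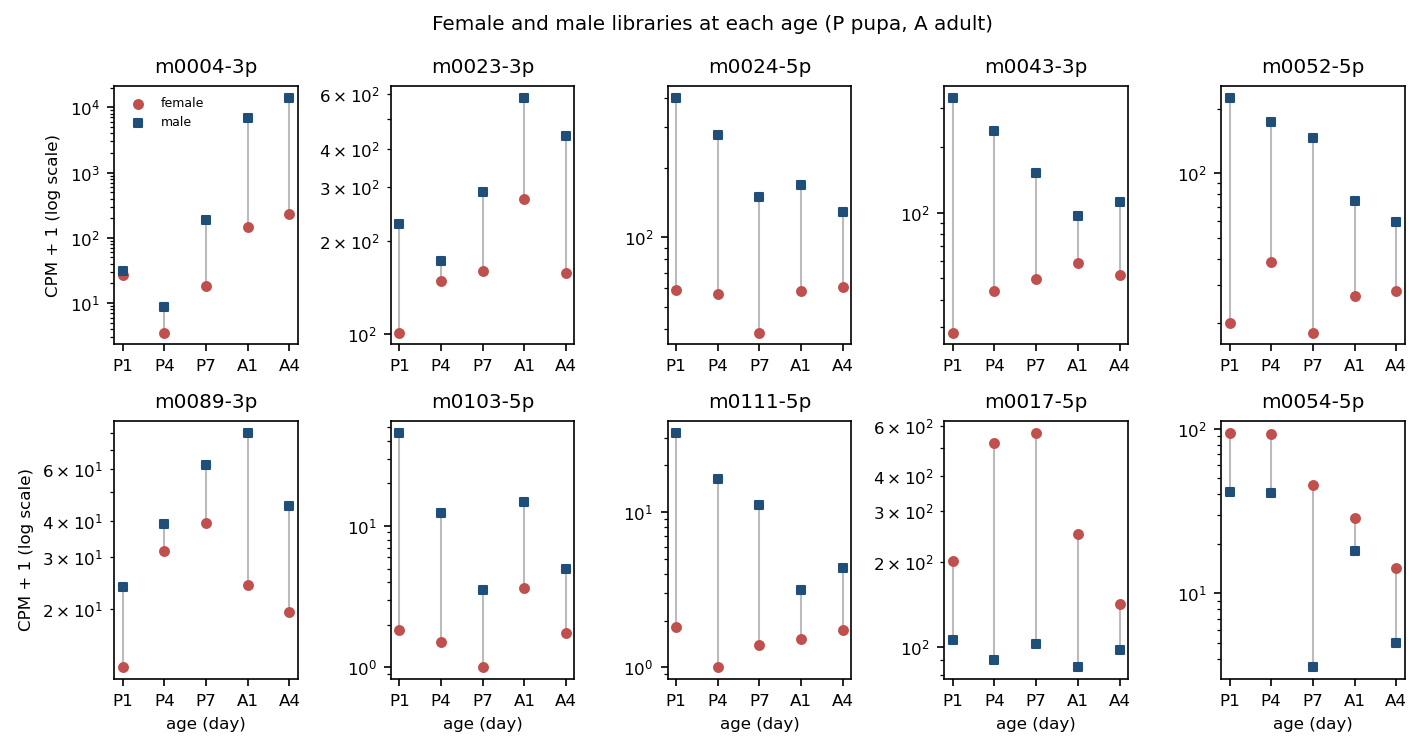
Level as CPM + 1 on a log axis (y, its own range in each panel) in the female and male library of each age (x; P pupa, A adult, with the day) for the 10 members that were higher in one sex at all 5 ages under 3 scalings. Each point is 1 library, so no error is shown; the first 8 panels have males above females and the last 2 females above males.

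A pair of members, picked out after their values had been seen, stood out in female libraries. m0120-3p was at 0 in 15 libraries and had 4.65 CPM in the female pupa of day 7 and 17.3 and 61.9 in female adults of days 1 and 4. Its near copy miR-989-z, of a family expressed in insect ovaries, had 711, 5168 and 18193 CPM in the same 3 libraries, 520.1 in the egg and at most 20.4 in males. m0129-5p had 53.8 CPM in the female adult of day 4 and at most 14.1 elsewhere. In edgeR, females against males gave an adjusted p = 0.12 for m0120-3p and 0.36 for m0129-5p. Both reached the mean needed for a test only through their female counts.

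m0056-3p ran from 7.86 CPM in the female pupa of day 1 to 214 in the egg, and m0065-5p from 25.4 in instar 6 to 89.7 in the female pupa of day 1. Neither passed in edgeR, but the DESeq2 adjusted p was 0.019 for m0056-3p in females against males and 0.0238 for m0065-5p in adults against pupae. The 7 members not named so far had means of 5.25 to 12.8 CPM over the 18 libraries, with the highest library of each at 19.3 to 34.5 CPM, and none of those tested passed a test of stage or sex in edgeR. In adults against pupae, where DESeq2 called 32.5% of all rows, it called m0107-5p higher (adjusted p = 0.0217) and m0100-3p lower (adjusted p = 0.0226).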

How the data were processed

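The values the authors deposited are raw counts in 1 table of microRNAs, whole numbers that sum to a different total in each of the 18 libraries, with a name and a sequence per row. Per the labels' protocols, total RNA went into TruSeq small RNA libraries read on a HiSeq 2500. The aligner, prediction tool and build were not given in the sources used here; no coordinates are printed. Of 741 rows, those alike in sequence and in every count were merged, leaving 660; the 62 members came from 85 rows. The prefix of each predicted name was dropped.

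The members and lists were chosen with earlier results of these data known. Groups were those of the labels: egg, larva, prepupa, female and male pupae, female and male adults. The main test was edgeR's quasi-likelihood test with robust dispersions (version 4.0.16, under R 4.3.3). Its TMM factors lay between 0.640 and 1.47. Rows averaging 10 or more counts over the libraries fitted were tested. Benjamini-Hochberg adjustment ran over all tested rows, with a threshold of 0.05. The printed SE is the log2 fold change divided by the square root of F and is approximate. Stages were compared over 16 libraries, and sexes over 10 with age as a block. Egg and prepupa had 1 library each and entered no test. Levels are TMM-scaled CPM, with factors from all 18 libraries. The scripts were tested on simulated data.

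Members were named by these rules: up to 10 rises and 10 falls per comparison past the threshold and averaging 50 CPM or more; the 12 highest means; members with at least 60% of their summed level, and at least 100 CPM, in 1 library; the 12 highest among seed partners and near copies; and the 3 on each side of each limit of the selection. Many of those named otherwise are said to be, but not all. A member without such a remark was therefore not always named by these rules. As alternatives, scaling used library totals or DESeq2's size factors, the test was DESeq2's Wald test (version 1.42.0) or limma (version 3.58.1) on log2 CPM, and the filter was dropped; others were a 2-fold minimum, unmerged rows, other terms in the design, and leaving out each library in turn or the male pupae of days 4 and 7. Leaving out 76 rows with vertebrate family names was added after the data had been seen. Tables and figures were made in Python 3.11.15 with pandas 2.3.3, numpy 2.4.6, matplotlib 3.10.9 and scipy 1.17.1.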

Additional observations from a re-analysis of the deposited data

Results flagged for a closer look

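The screen took in 26 sets of larval values, those of 25 named members and the members' share of counts. In 4 of them, all members, the highest of the 6 larval libraries stood apart from the rest by a gap of over 0.625 of the whole range. For values drawn at random from a normal distribution such a gap comes in about 1 of 20 sets. These members were picked partly on larval values and CPM need not be normal, so that rate is no baseline here. In m0023-3p instar 1 had 2919.7 CPM and the next library 839.5, a gap of 0.715 of the range. In m0053-3p instar 1 had 1230.6 CPM and the next 448.6, a gap of 0.638. In m0054-5p instar 1 had 220.1 CPM and the next 82.3, a gap of 0.718. In m0145-5p instar 5 had 20.1 CPM and the next 5.65, a gap of 0.719, at a depth where 3 counts are worth 11.1 CPM of the library total. Other groups had 3 libraries or fewer and were not screened.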

How the results depend on the processing

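Of 46 calls of members in the 3 stage comparisons, 25 held under every alternative in which the member was tested and 29 without each single library; 0 changed sign. Members called in adults against pupae numbered 12 of 49 by the DESeq2 Wald test (104 of 320 rows, 32.5%) and 2 to 6 on leaving out 1 library (29 to 91 rows), where 4 was the main value (75 of 320 rows). In adults against larvae the 21 (106 rows) became 11 to 24 (72 to 117 rows) on leaving out 1 library, the lowest without the female adult of day 4, and 14 with no filter (114 of 658 rows). In pupae against larvae the 21 (120 rows) became 17 to 21 (99 to 123 rows) on leaving out 1 library. They became 16 (90 of 329 rows) without the male pupae of days 4 and 7 and 24 (154 of 320) by the DESeq2 Wald test. For females against males the 0 calls of edgeR, with 2 of 344 rows, became 1 by library totals (3 rows), 5 with no filter (16 of 653), 12 by DESeq2 (21 of 344), 2 in limma (4 of 344), 1 with unmerged rows (4 of 377), 7 without vertebrate-named rows (13 of 318) and 0 to 4 on leaving out 1 library (1 to 14 rows). Age was the block and paired the female and male library of each age; without it 3 members and 5 of 344 rows were called. The sex difference between adults and pupae went from 0 (11 of 344 rows) to 1 with no filter (30 of 653), 4 by DESeq2 (40), 1 in limma (12), 2 without vertebrate-named rows (19 of 318) and 0 to 1 on leaving out 1 library (0 to 58 rows). The median share of counts was 3.10%, 4.5% with unmerged rows and 3.0% for the 52 members that are no near copy of a named row. Each of these shares includes the top sequence under several names. The causes were not tested. In larval libraries 3 counts were worth up to 13.0 CPM, and the part of depth in the values of scarce members was not tested.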
